A study of Gallus gallus with 10 samples.

Results

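The genes of 5 endoderm transcription factors, SOX17, HNF4A, FOXA1, GATA6 and HHEX, were followed in chicken embryos with and without exogenous Otx2. The genes were chosen by name, as the rows of the gene table that carry these symbols, and make up 5 of the 25443 genes measured. They and the gene lists used below were chosen with earlier results of these data known. Their medians and counts set against all genes are therefore descriptions. The study sequenced poly-A RNA of 10 samples, each a pool of tissues from 4 wild-type embryos. Their epiblast had been electroporated at st. 4/5, except in 1 of the trunk controls as judged by its EGFP reads. All embryos were collected at st. 10 to 11 after culture outside the egg. The Otx2 groups received the vector pCAGGS-mOtx2, which carries the mouse Otx2 cDNA, together with pCAGGS-EGFP, both driven by the ubiquitously active CAGGS enhancer-promoter. CH1 and CH2 were midbrain-hindbrain tissue of control embryos and OH1 and OH2 that of Otx2 embryos. CT1 and CT2 were the sinus rhomboidalis of controls, the posterior end of the open neural plate. OT1 and OT2 were the equivalent trunk tissue of Otx2 embryos. The paper reports that Otx2 embryos formed no sinus rhomboidalis and had a shorter trunk. OT and CT are thus corresponding regions rather than the same structure. The posterior area opaca, an extraembryonic tissue, was sampled once from controls (CA) and once from Otx2 embryos (OA). According to the study's methods, the controls were electroporated with the EGFP vector and a vector without insert. The sample labels name only pCAGGS-EGFP for CH and CA. For the trunk controls they contradict themselves: the title of CT1 excludes electroporation while its treatment lists pCAGGS-EGFP, and the treatment of CT2 is given as no electroporation. EGFP was at 1.12 TPM (12 reads) in CT1 and 15328 TPM (213836 reads) in CT2. By this measure CT2 but not CT1 carried the EGFP vector. Both were used as CT. The spread within CT and the differences from CT therefore include any effect of electroporation.

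The endoderm of the early embryo forms the gut tube and its organs, and its extraembryonic part covers the yolk and takes up and secretes nutrients and plasma proteins as the yolk sac endoderm. SOX17 and GATA6 act early in this lineage, FOXA1 is a pioneer factor that opens chromatin at gut and liver genes, HNF4A drives the differentiated program of liver, intestine and yolk sac endoderm, and HHEX is required in the anterior endoderm, liver and thyroid. The same genes are also used elsewhere: SOX17 and HHEX in endothelium, HHEX in blood progenitors, and GATA6 in the heart and lateral mesoderm. The samples were dissected pieces of tissue that can hold ectoderm, mesoderm and endoderm together, so that more cells of a type and more RNA per cell cannot be told apart in any of the results.

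Between 28606038 and 40806402 reads were counted on genes per sample. Mouse Otx2 was listed at 0 reads in the 5 control samples and at 97.4 to 529 TPM in the 5 Otx2 samples. The tissues were checked against their own genes. The summed level of 8 sinus rhomboidalis genes was 904 to 976 TPM in CT, 260 and 84.4 TPM in OT and at most 111 TPM in the other samples. The 27 yolk sac endoderm products summed to 46813 TPM in CA and 63696 TPM in OA, against 1084 to 19711 TPM in the embryonic samples. Duplicates stood apart in places that touch the results. The 17 cardiac genes summed to 581 TPM in CH1 and 4055 TPM in CH2, the 12 blood genes to 15108 and 1876 TPM in OT1 and OT2, and the yolk sac products to 3226 TPM in CT1 and 8804 TPM in CT2. No label assigned a day, litter or culture to the pools, and p-values therefore measure the spread between these pools. The library of CT1 was named NewCT1, and no other library name was marked as new. What the mark refers to is not stated in the labels.

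SOX17 (gene identifier 428534, a single transcript on chromosome 2, 110265391 to 110267116 in the GRCg7w assembly) was at its highest in one of the Otx2 trunk pools. OT1 and OT2 had 51.3 and 15.2 TPM, and CT1 and CT2 had 8.71 and 14.2 TPM. The level in OT2 was thus close to that of CT2, whereas OT1 was above every other sample. In the midbrain-hindbrain region SOX17 was at 10.3 and 8.51 TPM in CH and at 11.7 and 6.78 TPM in OH. In the area opaca it was at 7.62 TPM in CA and at 3.16 TPM in OA, the lowest sample. By group mean the order was OT, CT, CH, OH, CA, OA. From CT to CA each neighbor overlapped the next in this order. OT was set apart from CT by the narrow gap between OT2 and CT2, and OA was a single pool.

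HNF4A (identifier 419198, chromosome 20, 5554204 to 5583846) had the widest range of the members. It was at 74.5 TPM in CA and 60.4 TPM in OA. In the trunk, OT1 and OT2 had 48.9 and 13.9 TPM, and CT1 and CT2 had 4.54 and 9.86 TPM. In the midbrain-hindbrain samples it was at 0.880 and 1.46 TPM in CH and at 2.54 and 1.26 TPM in OH. The area opaca samples were above every trunk sample, every trunk sample was above every midbrain-hindbrain sample, and OT1 and OT2 were above CT1 and CT2. In the order CA, OA, OT, CT, OH, CH, only OH and CH overlapped. The lowest level, in CH1, rested on 47 reads and the highest, in CA, on 4367 reads.

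FOXA1 (identifier 101752179, chromosome 5, 36646000 to 36650625) varied least. Its levels were 5.13 and 4.89 TPM in CH, 7.37 and 6.63 TPM in OH, and 11.9 TPM in CA and 10.3 TPM in OA. In the trunk, CT1 and CT2 had 8.33 and 4.81 TPM, and OT1 and OT2 had 13.3 and 6.60 TPM. OT1 was again the highest sample, CT1 was above OT2, and the trunk groups overlapped. The order by mean was CA, OA, OT, OH, CT, CH, in which each group from OA on overlapped the next.

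GATA6 (identifier 396390, chromosome 2, 102320978 to 102343245) had the closest pair of OT pools among the members, at 37.1 and 32.4 TPM. The controls CT1 and CT2, at 5.21 and 15.02 TPM, were the lowest samples of the series. It was at 15.2 and 27.2 TPM in CH, at 20.8 and 20.1 TPM in OH, at 40.7 TPM in CA and at 53.9 TPM in OA. Both OT pools were above every control of the trunk and the midbrain-hindbrain region and below both area opaca samples. In the order OA, CA, OT, CH, OH, CT, only CH and OH overlapped.

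HHEX (identifier 396182, a single transcript on chromosome 6, 21390999 to 21395316) overlapped between control and Otx2 embryos in both regions. It was at 16.1 and 42.0 TPM in CH, 24.8 and 20.2 TPM in OH, 21.5 and 48.3 TPM in CT, and 37.9 and 65.3 TPM in OT. In CA it was at 44.0 TPM and in OA at 63.5 TPM. Each neighbor in the order OA, OT, CA, CT, CH, OH overlapped the next.

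**Figure D1:**
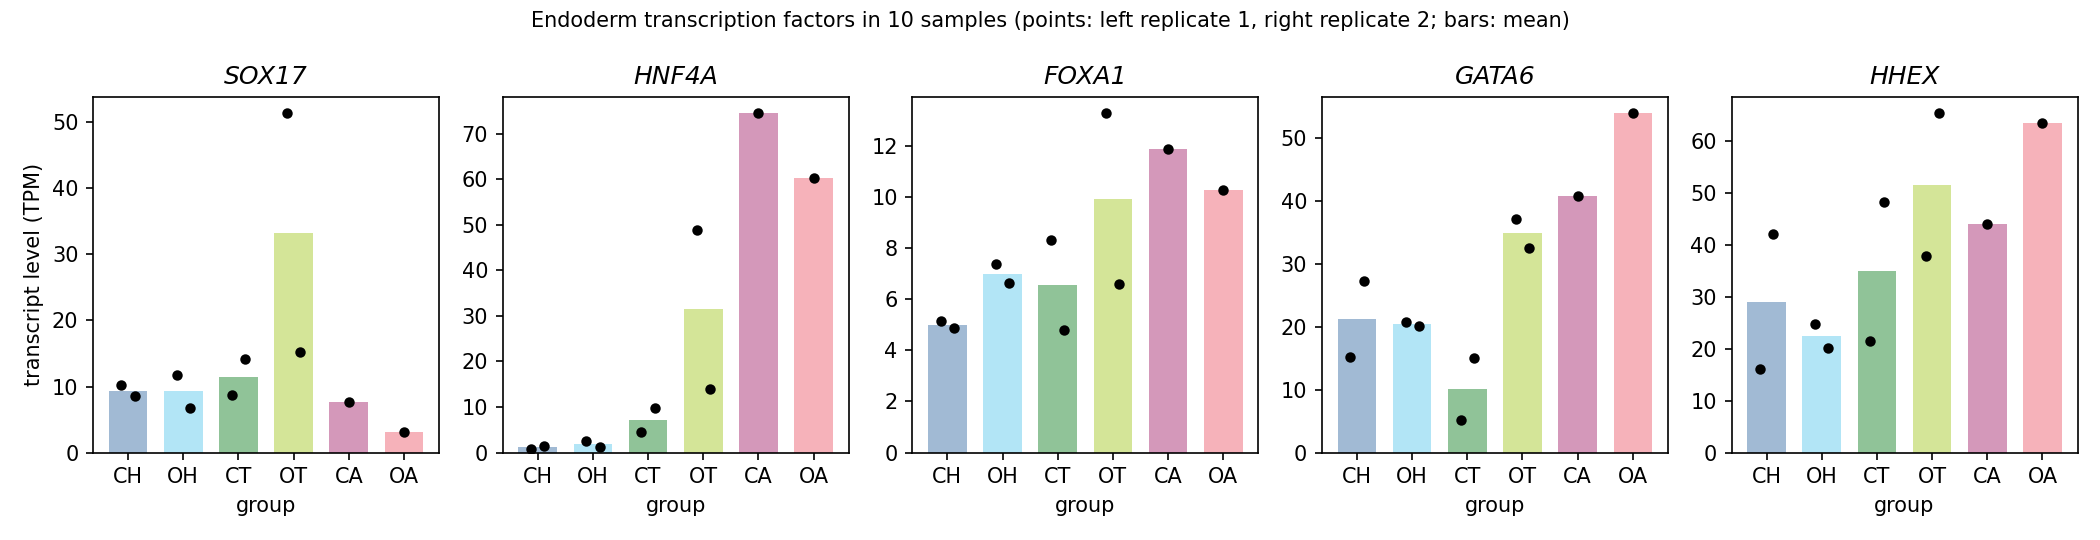
Transcript level in TPM (vertical axes, from 0, a scale of its own for each gene) of the 5 genes in the 6 groups (horizontal axes). Points are single pools (left replicate 1, right replicate 2) and bars are group means. HNF4A and SOX17 are split between the OT pools, at 48.9 and 13.9 TPM and at 51.3 and 15.2 TPM, whereas GATA6 is at 37.1 and 32.4 TPM.

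The comparison of OT with CT asked whether endoderm regulators differed in the trunk after Otx2 expression. All 5 members had a positive log2 fold change, but 0 of 5 passed the test over all genes (quasi-likelihood F-test of edgeR, Benjamini-Hochberg adjusted, threshold 0.05). GATA6 came closest, at 1.83 on the log2 scale (standard error 0.44; adjusted p = 0.0539), or 3.56-fold. HNF4A had the largest difference, 2.19 (standard error 0.68; adjusted p = 0.101), followed by SOX17 at 1.60 (standard error 0.60; adjusted p = 0.144). FOXA1 and HHEX differed by 0.67 and 0.60 (standard errors 0.40 and 0.50; adjusted p = 0.322 and 0.477). Of all 16611 genes tested, 6.73% were called in either direction and 4.29% as higher in OT. GATA6, HNF4A and SOX17 were below an unadjusted p of 0.05, as were 26.8% of all genes. DESeq2's Wald test called the same 3 members and 16.7% of all genes. In the same 3 members both OT pools lay above both CT pools, a pattern shown by 25.9% of the genes tested. The members' median difference was 1.60 on the log2 scale, and that over all genes was 0.03.

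The 5 differences rested on the pools to unequal degrees. Without OT1, the difference of SOX17 was 0.41 and that of HNF4A 0.95 (adjusted p = 0.622 and 0.361). Without OT2, they were 2.28 and 2.87 and passed the test (adjusted p = 0.0416 and 0.0438, with the variance of the lone OT pool taken from the other groups). GATA6 was less affected by the OT pools, at 1.69 without OT1 and 1.99 without OT2. It depended on the controls instead, at 1.29 without CT1 and 2.72 without CT2. SOX17 was at 1.29 without CT1 and 1.99 without CT2, and HNF4A at 1.74 and 2.84. CT1 and CT2 also differ in EGFP, at 1.12 TPM in CT1 and 15328 TPM in CT2. Both OT pools carried EGFP, at 5904 and 9062 TPM, so that only the fit without CT1 compares electroporated trunk pools alone. The part of electroporation in the difference between CT1 and CT2, or in those between OT and CT, was not tested. The difference of FOXA1 was 0.0085 without OT1 and 1.17 without OT2 (adjusted p = 0.996 and 0.084), and that of HHEX was 0.13 without CT1 and 1.29 without CT2 (adjusted p = 0.948 and 0.219).

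In the midbrain-hindbrain region, the comparison of OH with CH found 0 of 5 members called, and 0 of 5 at an unadjusted p below 0.05 or by DESeq2. Here 0.0361% of the genes tested were called, 2.76% were below an unadjusted p of 0.05 and 0.373% were called by DESeq2. The log2 differences were 0.71 for HNF4A, 0.46 for FOXA1, -0.04 for GATA6, -0.05 for SOX17 and -0.36 for HHEX, with standard errors of 0.40 to 0.70. HNF4A was counted with only 47 to 174 reads in these samples, and its difference was 0.11 without OH1 and 1.13 without OH2. Whether the trunk and the midbrain-hindbrain region differed in their response was tested by the interaction. It was positive for all members and called for 0 of 5, where the background was 0.223%. GATA6 had the largest interaction, 1.87 (standard error 0.61; unadjusted p = 0.0176; adjusted p = 0.258), and was the only member below an unadjusted p of 0.05 and the only one called by DESeq2, where the background was 13.1% and 4.73%. The remaining interactions were 1.65 for SOX17, 1.48 for HNF4A, 0.96 for HHEX and 0.21 for FOXA1. Without OT1, SOX17 was at 0.46 and HNF4A at 0.24, and without CH2 HHEX was at 0.20. The order of the members depended on the pools too: without OT2 the interactions of SOX17 and HNF4A, 2.34 and 2.18, were larger than that of GATA6, 2.03.

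The control regions were compared with each other to show where along the axis the members were expressed. HNF4A was 2.61 higher on the log2 scale in CT than in CH (standard error 0.71; adjusted p = 0.0736), and GATA6 was at -1.04 (standard error 0.43; adjusted p = 0.219). Of the 5 members 0 were called, 2 were below an unadjusted p of 0.05, and DESeq2 called HNF4A alone. The background was 7.78% called, 21.7% below the unadjusted threshold and 14.8% called by DESeq2. Omission of OT1 or OT2, which are no part of this comparison but lend it their spread, brought HNF4A below the threshold (adjusted p = 0.0269 and 0.0299). Without CT2, GATA6 was called as lower in CT, at -1.94 (adjusted p = 0.0397), whereas without CT1 it was at -0.50 (adjusted p = 0.495). SOX17, FOXA1 and HHEX differed by 0.27 to 0.38, within their standard errors.

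**Figure D2:**
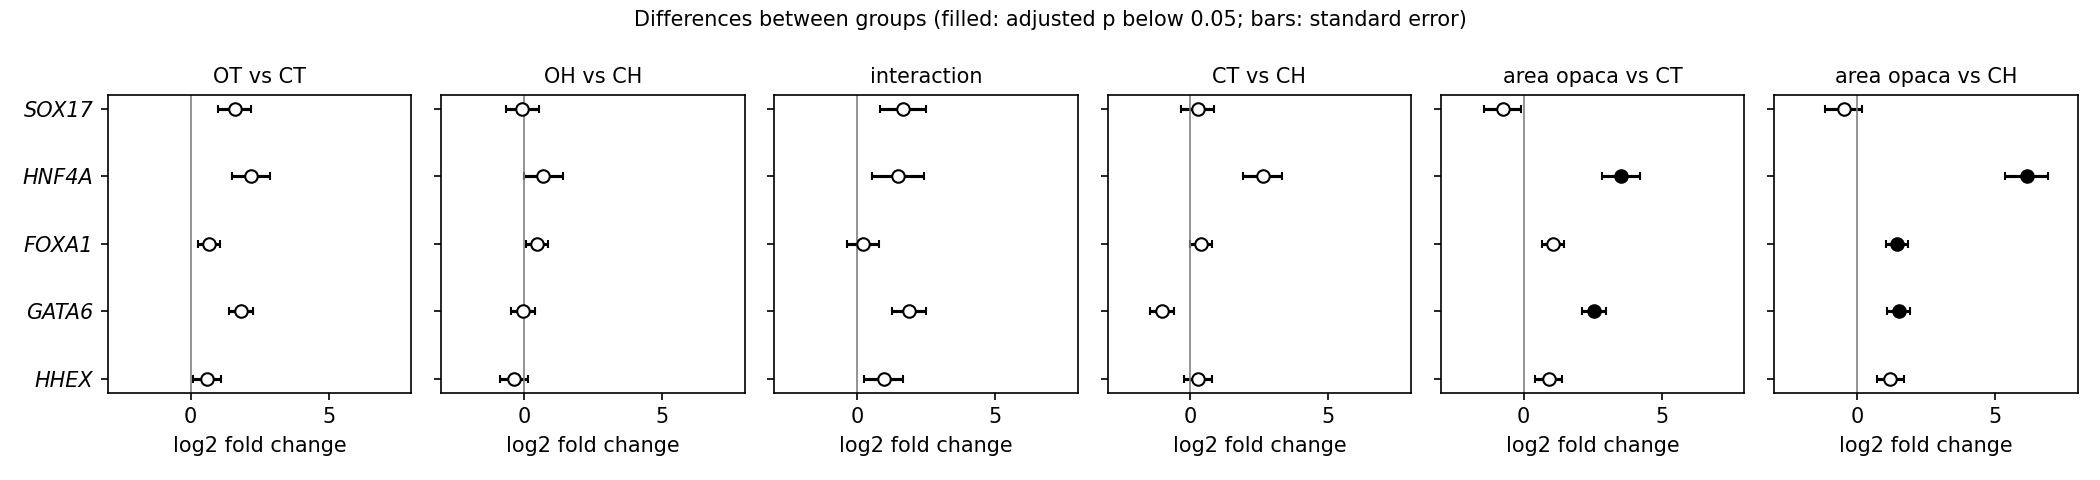
Log2 fold change (horizontal axes) of the 5 genes in the 6 comparisons, with the standard error as a bar on each side and filled points for an adjusted p below 0.05. Area opaca stands for CA and OA together. The 5 filled points are HNF4A and GATA6 against CT, and HNF4A, GATA6 and FOXA1 against CH, and all members lie above 0 for OT against CT.

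The area opaca carries the extraembryonic endoderm, and CA and OA were set together against the controls to show which members mark it. They are a control and an Otx2 pool, so that their spread includes any difference that Otx2 made. HNF4A and GATA6 were higher in the area opaca than in CT, by 3.53 (standard error 0.68; adjusted p = 0.00988) and by 2.55 (standard error 0.44; adjusted p = 0.00686) on the log2 scale. These were 2 of 5 members called, where 25.2% of all genes were called and 13.3% were called as higher. FOXA1 was at 1.06, HHEX at 0.91 and SOX17 at -0.76 (adjusted p = 0.0847, 0.199 and 0.433). HHEX was at 0.42 without CT1 and 1.61 without CT2, and SOX17 at -1.60 without CA and -0.22 without OA. In FOXA1, GATA6 and HNF4A, CA and OA both lay above CT1 and CT2, which 22.5% of genes did. DESeq2 called the same 3 members and 33.1% of all genes. Without CT1 the call of HNF4A was lost, at 3.06, and a smaller share of all genes was called than in the full fit. FOXA1 was called as well without OT1 or OT2, at 1.06 and 1.04.

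Against CH, 3 of 5 members were higher in the area opaca, with a background of 31.6% called and 16.4% called as higher. HNF4A was higher by 6.16 (standard error 0.79; adjusted p = 0.00161), a 71.5-fold difference, GATA6 by 1.52 (standard error 0.42; adjusted p = 0.028) and FOXA1 by 1.45 (standard error 0.40; adjusted p = 0.0281). HHEX was at 1.21 (adjusted p = 0.0945) and SOX17 at -0.48 (adjusted p = 0.618). In all members but SOX17, CA and OA were both above CH1 and CH2, as in 22.7% of genes. The call of HNF4A was made with any 1 of the samples left out. GATA6 lost its call without CH1, CA or OA, at 1.20, 1.58 and 1.44. FOXA1 lost its call without CH1, CH2 or CA, at 1.54, 1.36 and 1.22. In each of these fits a smaller share of all genes was called as well. HHEX was at 1.97 without CH2. DESeq2 called all members but SOX17, 4 of 5, where 38.2% of all genes were called. In limma on log2(TPM + 1), HNF4A and FOXA1 were called and GATA6 was not, where 39.1% of all genes were called.

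CA and OA had no replicates, and their own difference could not be tested. SOX17 was counted with 107 reads in OA and 213 in CA, a ratio of 0.370 in CPM, the count scaled by depth (95% exact interval 0.291 to 0.469, which covers counting error only). It was the only member past 2-fold, a difference that 10.3% of the genes with a mean of at least 1 CPM showed in either direction. The ratios were 0.724 for HNF4A, 0.737 for FOXA1, 1.06 for GATA6 and 1.29 for HHEX. They are scaled by the total count alone, without TMM. In TPM, OA stood higher against CA, as for GATA6 at 53.9 TPM in OA and 40.7 TPM in CA. SOX17 was thus higher in the control pool of the area opaca, with a single pool on each side. In the trunk OT1 was at 51.3 TPM, whereas OT2, at 15.2 TPM, was close to CT2, at 14.2 TPM. The trunk difference was not called.

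The wider set of endoderm regulators was described from a list of 20 further genes, all transcription factors except the secreted antagonist CER1, of which 19 had a row in the gene table and 18 were tested. CDX1 and FOXA2 were higher in OT than in CT. CDX1, a posterior homeobox factor also active in the intestine, was at 47.3 and 30.0 TPM in OT and at 2.29 and 8.40 TPM in CT (log2 fold change 2.90; standard error 0.63; adjusted p = 0.041). FOXA2, the FOXA factor of the early endoderm and also of the notochord and floor plate, was at 33.5 and 32.9 TPM in OT and 10.9 and 13.7 TPM in CT (1.47; standard error 0.29; adjusted p = 0.033). In both genes the OT pools were above the CT pools, and the OT pools of FOXA2 were almost equal.

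Of the 18 regulators, 15 had a positive difference, and their median was 1.18 on the log2 scale against 0.03 over all genes. Of them 2 were called as higher and 0 as lower, where 4.29% of all genes were called as higher. Without OH1, OH2, CT1 or OT2 both called regulators lost their calls, and a smaller share of all genes was called too. By limma, 1 was called on log2(TPM + 1) and 0 on log2(TPM + 0.1), where 4.57% and 4.28% of all genes were called. With CT and OT fitted alone, 0 regulators and 0.849% of all genes were called. GATA4, the cardiac and endodermal relative of GATA6, was at 63.5 and 39.5 TPM in OT against 3.95 and 10.6 TPM in CT without passing the test (2.86; adjusted p = 0.0549). The abundant CDX2 and TBX3 had negative differences, at 110 and 31.4 TPM in OT against 119 and 133 TPM in CT for CDX2 (-0.83; adjusted p = 0.322), and at 50.4 and 50.05 TPM against 68.5 and 71.2 TPM for TBX3 (-0.42; adjusted p = 0.186). Each is also expressed outside the endoderm, CDX2 in the sinus rhomboidalis itself. GATA5, at 79.3 and 152 TPM in OT and 69.3 and 58.4 TPM in CT, did not pass the test either (0.89; adjusted p = 0.203).

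Between OH and CH, 0 of the 18 regulators were called by edgeR or DESeq2 and 0 were below an unadjusted p of 0.05. Between CT and CH, CDX2 (3.70; adjusted p = 0.0108) and TBX3 (1.59; adjusted p = 0.00478) were higher in CT, and NKX2-3, a factor of gut mesoderm and pharyngeal endoderm, fell by 2.67 (adjusted p = 0.0193). The number of regulators called here was higher without OT1 and lower without CH2, as was the share of all genes called. In the area opaca, 4 of 18 regulators were higher than in CT and 6 of 18 higher than in CH. Over all genes 13.3% and 16.4% were called as higher. HNF4G, HNF4beta, CDX1 and ONECUT2 were among the called genes in both comparisons, and TBX3 and CDX2 were called against CH. HNF4beta and HNF4G are relatives of HNF4A, and were at 15.8 and 4.52 TPM in CA, 10.8 and 4.27 TPM in OA, and at most 0.695 and 1.05 TPM in CH. NKX2-1, a thyroid, lung and forebrain factor, was the 1 regulator called as lower, listed at 0 in CA and OA and at 0.687 to 3.30 TPM in CT and CH. Between the area opaca and CT, 5 regulators were called in all, where 25.2% of all genes were called. Fewer regulators were called without CT1 or without OA, as were fewer of all genes.

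**Figure D3:**
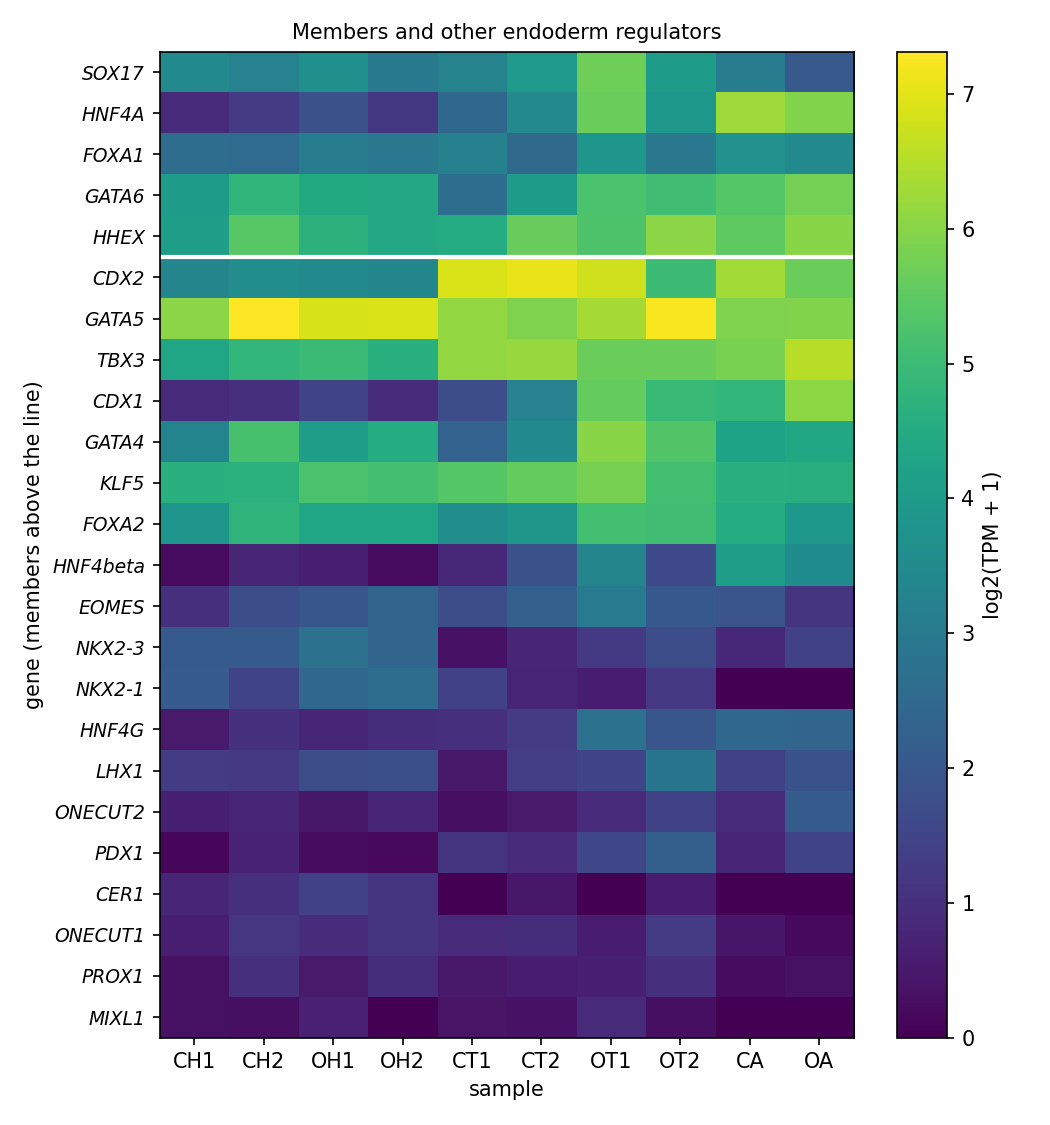
Levels as log2(TPM + 1) (color scale, from 0) of the 5 members (above the white line) and of 19 other endoderm regulators (rows, by falling level) in the 10 samples (columns). HNF4A, HNF4beta and CDX1 are low in CH and OH and high in OT1, CA and OA. CDX1 is also high in OT2, at 30.0 TPM. CDX2 and GATA5 reach over 100 TPM in some of the embryonic samples.

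Genes of the differentiated yolk sac endoderm were measured next, because HNF4A is known to act on many of them. The list held 28 products, of which 27 were in the table and 25 were tested: plasma proteins such as transthyretin (TTR) and transferrin (TF), apolipoproteins, fibrinogen chains and uptake receptors. TTR was at 1081 and 2386 TPM in CT, 4814 and 4852 TPM in OT, 18859 TPM in CA and 24394 TPM in OA. APOA1, the main protein of high-density lipoprotein, was at 1025 and 2968 TPM in CT, 7184 and 3571 TPM in OT, 13460 TPM in CA and 18580 TPM in OA. For both genes OT lay above CT and below the area opaca. Over the list, 23 of 25 products had a positive difference between OT and CT, with a median of 1.29 on the log2 scale against 0.03 over all genes. Of the products 2 were called as higher, where 4.29% of all genes were. These were vitronectin (VTN), at 1.09, and the vitamin E carrier TTPA, at 1.05 (adjusted p = 0.0366 and 0.0423). By mean neither was higher in CT than in CH, at 46.7 against 61.2 TPM for VTN and 5.24 against 5.54 TPM for TTPA. With CH1, CH2, OH1, OH2, CT1, OT1 or OT2 left out, fewer products were called, as were fewer of all genes. RBP4 was listed at 0 in every sample and AHSG was at most 0.351 TPM.

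In the area opaca, 14 of 25 products were called as higher than in CT and 24 of 25 as higher than in CH, with 0 called as lower. Over all genes 13.3% and 16.4% were called as higher. Without CT1 fewer products were called against CT, as were fewer of all genes. Between OH and CH, 0 were called by edgeR or DESeq2 and 0 were below an unadjusted p of 0.05. Between CT and CH, 21 of 25 products had a positive difference, with a median of 1.71 on the log2 scale against 0.0031 over all genes. Of the 25, 14 were below an unadjusted p of 0.05 in edgeR, where 21.7% of all genes were. DESeq2 called 11 products and 14.8% of all genes. In edgeR 2 products were called, where 7.78% of all genes were. These were the phosphate transporter SLC34A2, at 2.97, and APOH, at 3.05, both higher in CT (adjusted p = 0.00518 and 0.0221). This count changed with the sample left out, and did not always move with the share of all genes called. Without OH1 or OH2 more products were called, although fewer of all genes were.

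The 10 samples had the same order by HNF4A as by the summed products, except that CA and OA were exchanged. Per 1000 TPM of products, HNF4A was between 0.811 TPM in CH1 and 2.48 TPM in OT1. It was at 1.41 and 1.12 TPM in CT1 and CT2, 1.12 TPM in OT2, 1.59 TPM in CA and 0.948 TPM in OA. OT2 was thus at the value of CT2 on this scale, and OT1 was above all other samples. GATA6 was at 7.36 to 18.2 TPM per 1000 TPM of products in the midbrain-hindbrain samples, 1.61 to 2.60 TPM in the trunk and 0.870 and 0.845 TPM in CA and OA. In the trunk the OT pools of GATA6 were above the CT pools on this scale, at 1.88 and 2.60 TPM against 1.61 and 1.71 TPM. SOX17 was at 4.15 to 9.49 TPM in the midbrain-hindbrain samples, 2.70 and 1.61 TPM in CT, 2.60 and 1.22 TPM in OT, 0.163 TPM in CA and 0.0496 TPM in OA. Its trunk groups thus overlapped per product, with the higher mean in CT. FOXA1 overlapped there as well, at 2.58 and 0.546 TPM in CT and 0.673 and 0.529 TPM in OT. HHEX had the opposite order to its TPM means, at 6.68 and 5.48 TPM in CT and 1.92 and 5.24 TPM in OT. HNF4A and the products come from the same libraries, and the sum is led by TTR and APOA1.

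**Figure D4:**
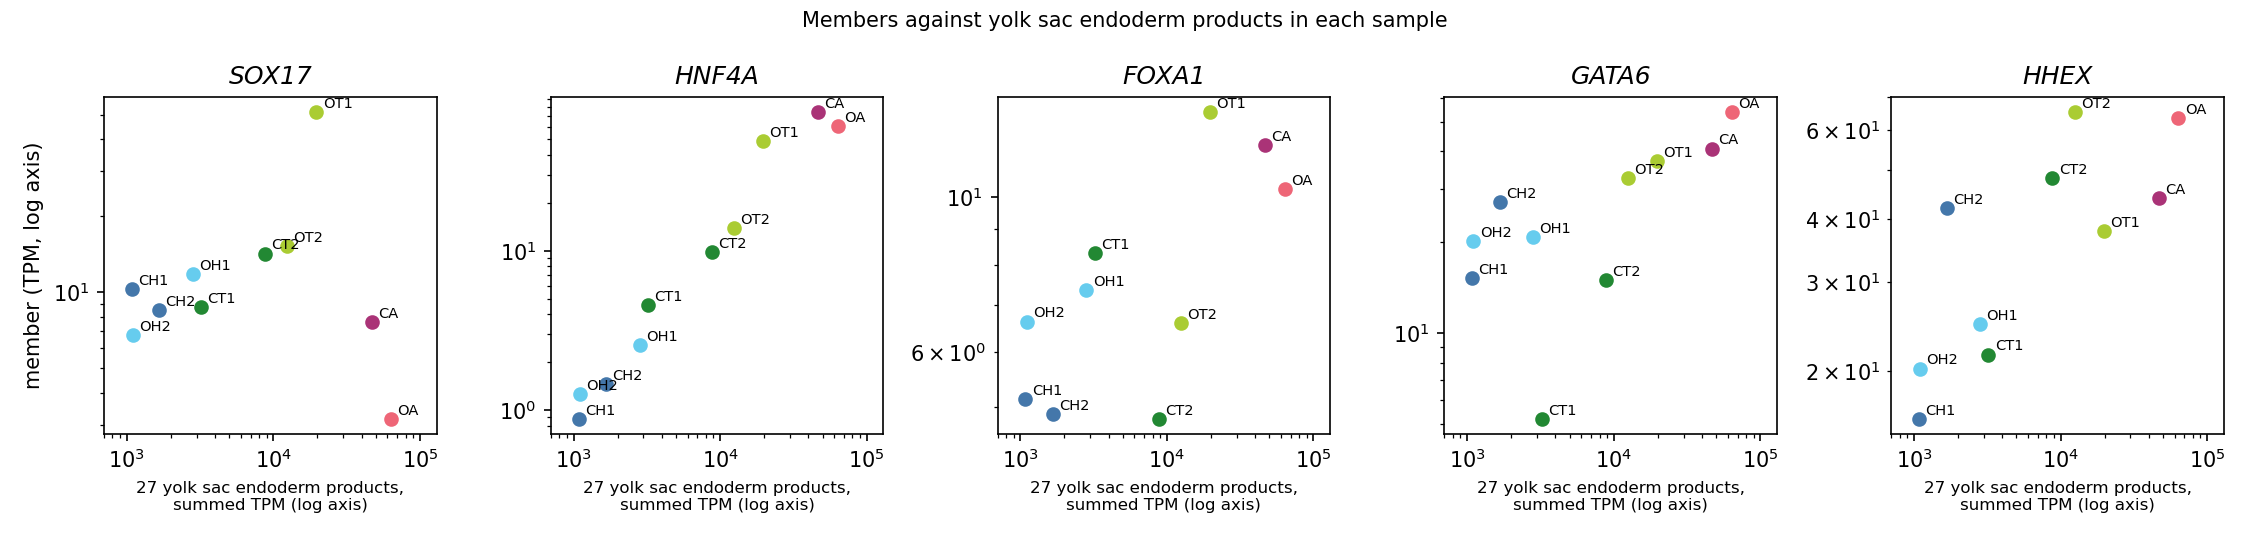
Level of each member (vertical axes, TPM, log scale) against the summed TPM of the 27 yolk sac endoderm products (horizontal axes, log scale), with 1 point per sample colored by group. HNF4A and the products are lowest in CH1 and highest in CA and OA, SOX17 is lowest in OA where the products reach 63696 TPM, and GATA6 is lowest in CT1 at 5.21 TPM.

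Genes of the other tissues in which the members are expressed were also compared between OT and CT. The 18 endothelial genes summed to 233 and 439 TPM in CT, 424 and 559 TPM in OT, 525 TPM in CA and 728 TPM in OA. A positive difference between OT and CT was found in 17 of the 18. Where 4.29% of all genes were called as higher, 1 endothelial gene was, the diaphragm protein PLVAP, at 1.26 (adjusted p = 0.0278). This call was lost without OH1, OH2, CT1 or OT2, and fewer of all genes were called too. Without OT1 or CT2 more endothelial genes were called, although fewer of all genes were. No endothelial marker was at 0 in more than 1 sample. The 17 cardiac genes summed to 303 and 368 TPM in CT and 1910 and 1777 TPM in OT. Of them 9 were called as higher and HAND2 as lower, where 6.73% of all genes were called in either direction. ACTC1, cardiac actin, was at 865 and 714 TPM in OT and 3.33 and 4.49 TPM in CT. Without CT1 or without CT2 fewer cardiac genes were called, as were fewer of all genes. BMP10 alone among the cardiac genes was at 0 in more than 1 sample. The part of endothelial and cardiac cells in the differences of SOX17, HHEX and GATA6 was not tested.

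The 12 blood genes summed to 10090 and 6015 TPM in CT, 15108 TPM in OT1 and 1876 TPM in OT2. In the area opaca they summed to 31328 TPM in CA and 20280 TPM in OA. Their median difference between OT and CT was 0.04 on the log2 scale, with 1 gene, MYB, called as lower. This call was lost when any 1 of the 8 samples was left out. OT1, the pool with high SOX17 and HNF4A, was also the OT pool with the higher blood sum, and HHEX was higher in OT2. OT1 was lower in mouse Otx2, at 334 TPM against 529 TPM in OT2. Its sinus rhomboidalis genes summed to 260 TPM, against 84.4 TPM in OT2. The part of these in the split between the OT pools was not tested. Of 11 notochord and floor plate genes, FOXA2 was called as higher in OT, and TBXT, CHRD and NOTO as lower. These were 4 calls, where 6.73% of all genes were called in either direction. Fewer were called without CT1, OH1, OH2 or OT2, as were fewer of all genes. With CT and OT fitted alone, 1 of them and 0.849% of all genes were called.

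The deposited transcript table divides 3 of the members into annotated transcripts. For HNF4A, variants 1 and 2 cover 5554209 to 5570428, and variants 3 and X1 extend to 5583846, the far end of the gene. The 2 longer-spanning variants took 15.2% of the HNF4A level in OT2 (117 estimated reads), 6.19% in OA (263 reads), 1.24% in CA (54 reads) and 0.915% in OT1 (24 reads). They were listed at 0 reads in CT1, CT2, CH1 and CH2, where HNF4A as a whole had 221, 652, 47 and 81 reads. In OH they had at most 3 reads. OT1 had the higher HNF4A level of the OT pools and the smaller share of the long variants. Variant 1 made up 87.9% of HNF4A in OT1, 82.1% and 92.0% in CT, 78.5% in CA and 77.7% in OA. It was at 41.2% in OT2, where variant 2 was at 43.7%. In the midbrain-hindbrain samples, where HNF4A was low, variant 1 was at 0% in CH1 and 34.7% in CH2. It was at 59.9% in OH1 and 8.60% in OH2, and variant 2 took most of the remainder in these samples. The variants share most of their sequence and the reads were divided between them by StringTie, so these shares are estimates with no error of their own.

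GATA6 was assigned mainly to variant X1, at 79.3% in CA and 86.0% to 96.7% in the other samples, with the remainder on variant 2 and variant 1 listed at 0 throughout. The share of variant 2 was 20.7% in CA and 3.34% in OA. FOXA1 was divided between variant X3, at 59.5% to 78.4%, and variant X1, with X2 listed at 0 in every sample. No tissue or treatment stood apart in FOXA1, whose lowest share of X3 was in CT2 and highest in OA.

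**Figure D5:**
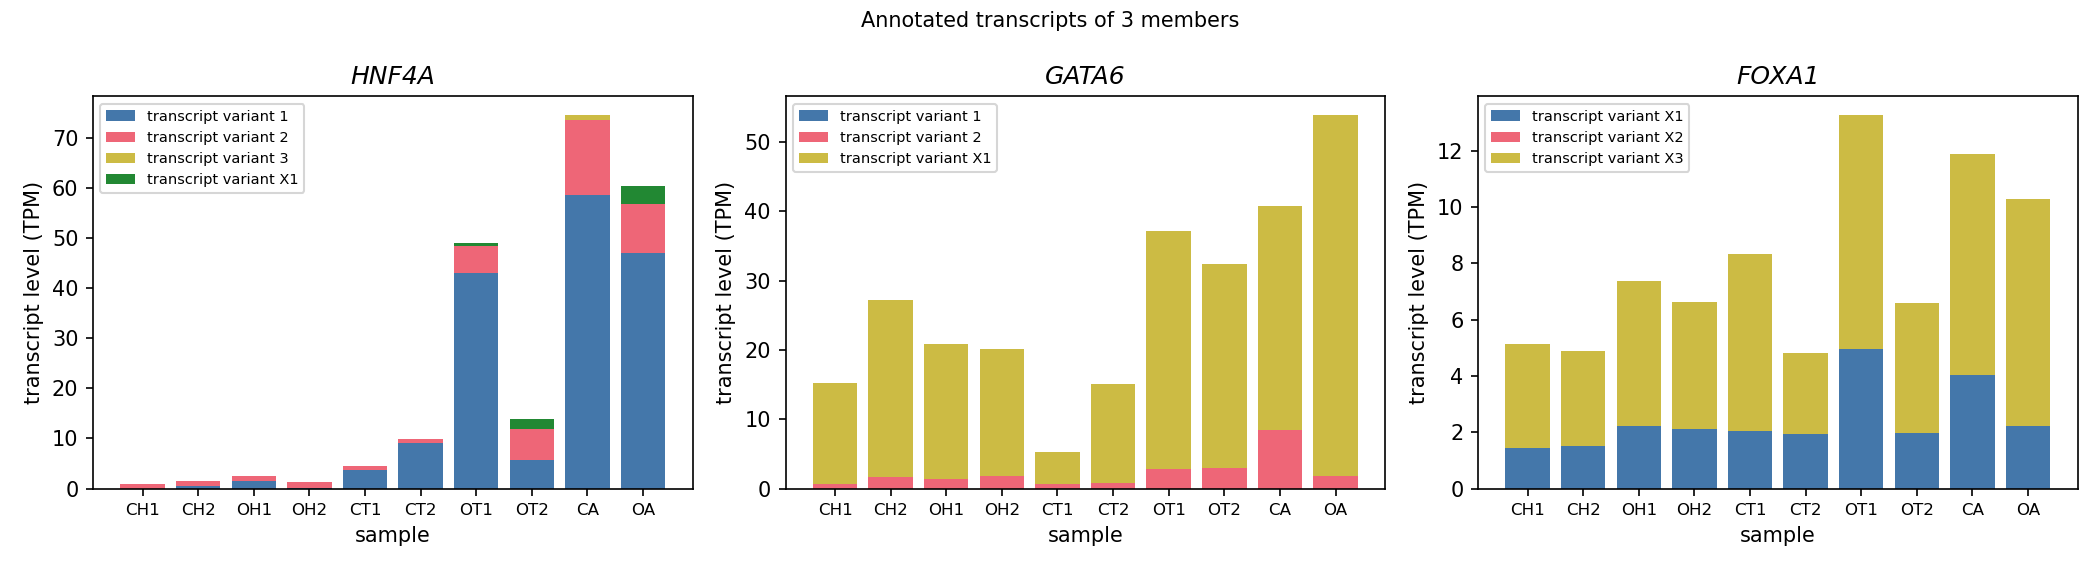
Stacked bars of the TPM of the annotated transcripts (vertical axes, from 0) of HNF4A, GATA6 and FOXA1 in the 10 samples (horizontal axes). Variant 1 makes up most of HNF4A in CT, OT1, CA and OA, at 77.7% to 92.0%, and variant X1 is visible in OT2 and OA.

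The genes most like each member were found by the root mean square difference of log2(TPM + 1) over the 10 samples, after each gene had been centered on its own mean, among 10887 genes with a symbol and at least 5 TPM in some sample. For HNF4A they were SLC30A2, GUCY2C, CLRN3, DNAJC22 and DPP4, with differences of 0.273 to 0.301, where the median over all genes compared was 2.08. GUCY2C, a guanylate cyclase receptor known from the intestine, was at 3.29 and 8.10 TPM in CT, 47.2 and 8.52 TPM in OT, 57.2 TPM in CA and 51.1 TPM in OA. DPP4, a brush border peptidase, was at 6.07 and 9.29 TPM in CT, 62.3 and 17.2 TPM in OT, 69.8 TPM in CA and 88.0 TPM in OA. Both were picked for their likeness to HNF4A, so that their high levels in OT1 and the area opaca follow from the choice.

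For SOX17, TUBA4AL, TUB4A, UNC5D, PHF19 and SFN came nearest, at 0.361 to 0.528 with a median of 0.931 over all genes, and TUBA4AL, an alpha tubulin, was at 22.7 TPM in OT1 and at most 7.34 TPM elsewhere. The reads of the 2 tubulin genes TUBA4AL and TUB4A may be shared between them. LZTS3, PRKCDBP, CD99, TESC and MMP28 were the nearest to GATA6 (0.192 to 0.308; median 0.980), and PERPB, ARHGAP24, RAB32, HLX and IL1RL2 to HHEX (0.249 to 0.317). FOXA1 was nearest to SLC30A1, KCTD14, ARID3C, AMDHD2 and TPP1 (0.193 to 0.214; median 0.617). None of these 25 genes was on the lists used here, and no member was among the 5 nearest to another member.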

How the data were processed

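Reads were aligned by the authors to GRCg7w, a chicken reference, extended by mouse Otx2 and EGFP, and StringTie assembled the transcripts. Which aligner, which versions and which strand setting were used is not given in the sources used here. The deposited counts are whole numbers without normalization, and the deposited TPM values are scaled by the authors for transcript length and sample total. The FPKM values, in 20 columns, were not used. Chromosome numbers come from a match of gene identifiers to the GRCg7b gene table. No sequences are shown.

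Counts were fitted in edgeR 4.0.16 (R 4.3.3) with TMM normalization, the default low-count filter and quasi-likelihood tests. The 8 samples of the embryonic regions shared a fit (16611 genes, 4 residual degrees of freedom), and a fit of all 10 samples with CA and OA as one group served the area opaca (16915 genes, 5 degrees of freedom). Standard errors are the log2 fold change over the root of F. P-values were adjusted by Benjamini-Hochberg over all genes tested, and genes below 0.05 are called. The scripts were tested on simulated data. Alternatives were the DESeq2 1.42.0 Wald test, RLE normalization, no filter, and limma 3.58.1 on log2(TPM + 1) and log2(TPM + 0.1). Further alternatives were the replicate number as a block, only the groups compared, and omission of each sample. Crossed numbers, the block with the replicate numbers of OT1 and OT2 exchanged, was an unplanned alternative. Named are the members, up to 5 of the most abundant genes of a list, list genes counted as called, and the 5 genes most like each member. RBP4 and AHSG were named for their low values. Some genes are not reported here. The members and lists were chosen with earlier results of these data known.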

Additional observations from a re-analysis of the deposited data

How the results depend on the processing

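The replicate numbers are not tied to a day or litter in the labels, and deviations of equally numbered pools correlated between -0.155 (CT with OT) and 0.14 (OH with OT) across 16611 genes. With the replicate block, 0 members were called in the comparisons of OT with CT, OH with CH and CT with CH and in the interaction, and 0 yolk sac products in OT against CT. The block called 5.29% of all genes in OT against CT and 6.67% in CT against CH. With crossed numbers (those of OT1 and OT2 exchanged, not planned), 1 member and 4.4% of all genes were called in OT against CT.

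DESeq2 called 3 members in OT against CT, 1 in the interaction and 1 in CT against CH. DESeq2 also called more genes in all (2776 against 1118 in OT against CT, 786 against 37 in the interaction), 7 of 18 regulators and 7 of 18 endothelial genes. With the compared groups alone, 135 genes and 0 regulators were called in OT against CT. In CT against CH, 1 member and 8.6% of all genes were called. With limma on log2(TPM + 0.1), 0 regulators were called in OT against CT (1 on log2(TPM + 1)). In the area opaca against CH it called 1 member, HNF4A, and 37.2% of all genes. Here the median of all genes moved by between -0.20 and -0.29. When each sample was left out, 0 to 2 members were called in OT against CT and 0 to 1 in CT against CH. In the area opaca, 1 to 3 were called against CT and 1 to 3 against CH. The share of all genes called changed as well. In OT against CT it was below that of the full fit whichever sample was left out. In the other comparisons named here it was higher only without OT1 or OT2. Whether the members changed more than all genes was not tested.

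Differences near 0 changed sign. For GATA6 in OH against CH, the value was 0.0055 with limma on log2(TPM + 1), 0.0083 on log2(TPM + 0.1), 0.0191 with the replicate block and 0.0363 with crossed numbers. With single samples left out, OH against CH ranged from -0.35 to 0.36 for GATA6, -0.52 to 0.30 for SOX17 and -0.85 to 0.39 for HHEX. CT against CH ranged from -0.12 to 0.57 for SOX17, -0.0231 to 0.69 for FOXA1 and -0.41 to 1.04 for HHEX. The interaction of FOXA1 ranged from -0.45 to 0.72, and SOX17 in the area opaca against CH from -1.35 to 0.0389. The cause was not tested. In OT against CT the 5 differences stayed above 0 in all 16 alternatives, but were as low as 0.0085 for FOXA1 without OT1 and 0.13 for HHEX without CT1. Duplicate pools limit the test to large differences.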
